A study of Mus musculus with 6 samples.

Results

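The cytosolic ribosomal protein genes were followed in RNA-seq of splenic follicular helper T (Tfh) cells. Members were the protein-coding genes of the GENCODE annotation on GRCm38 whose symbol starts with Rpl or Rps and a digit, together with Rplp0, Rplp1, Rplp2 and Rpsa and without the Rps6k kinase genes and Rps19bp1. This gave 91 of the 53379 genes in the files, 57 of the large and 34 of the small ribosomal subunit, and 6 of the 91 carry a pseudogene style name although they are annotated as protein coding. The study asked how loss of Prdm1, which encodes the transcription factor Blimp1, in dendritic cells affects Tfh. Prdm1-CKO mice were Prdm1 fl/fl with CD11c-CRE, and CTL mice were Prdm1 fl/fl without CD11c-CRE or Prdm1+/+ with it, and no label tells which CTL mouse was which. All were females of 6 to 8 weeks that received NP-CGG in CFA, and TCRβ+CD4+CXCR5+PD1+ cells were sorted from the spleen on day 7, giving 1 Smart-seq2 library from each of 3 CTL and 3 Prdm1-CKO mice. The labels call the second group KO in the titles and KD in the genotype field. CD11c-CRE acts in dendritic cells and not by design in the sorted T cells, so the Prdm1 counts of 422, 253 and 186 in CTL and 536, 303 and 451 in Prdm1-CKO mice check nothing about the labels.

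Ribosomal proteins assemble with ribosomal RNA into the small subunit, which reads the mRNA, and the large subunit, which forms the peptide bonds. Their mRNAs begin in a terminal oligopyrimidine tract, a C followed by a run of C and T bases, through which mTORC1 and Larp1 control their translation. Activated T cells raise ribosome production as they grow and divide. The genes have left many processed pseudogenes in mammalian genomes, which are copies of the spliced mRNA, so that a short read can match several places.

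Start-site sequences are shown first because the tract is the feature these genes are known to share. RefSeq promoter entries on GRCm38.p6, which run from 250 bases before to 50 bases from the listed start, were found for 65 of the 91 members, as 77 entries. A C followed by at least 4 C or T bases lay exactly at the listed start in 18.2% of the 77 entries and in 2.51% of all 32851 entries. Starting within 5 bases of the listed start, the shares were 41.6% and 18.3%. The letters CCGGAAG, on either strand anywhere in the window, were in 35.1% of member entries and 8.86% of all entries, and TATAAA was in 9.09% and 13.6%. A match is a description of the letters and not a shown site of action. A selection of 8 members with a tract exactly at the listed start is given 5′ to 3′, in order of level per length. Each has 15 bases before the start and the tract in capitals. The selection is not a ranking, and members with a tract and a higher level may be missing from it.
Rps27rt, chr9:114982725-114982754, minus strand: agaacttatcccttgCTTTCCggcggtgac
Rps27, chr3:90213634-90213663, minus strand: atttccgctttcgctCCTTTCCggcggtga
Rpl38, chr11:114668565-114668594, plus strand: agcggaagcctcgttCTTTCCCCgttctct
Rpl14, chr9:120571502-120571531, plus strand: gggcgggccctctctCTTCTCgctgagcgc
Rps21, chr2:180257364-180257393, plus strand: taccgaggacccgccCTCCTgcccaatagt
Rplp2, chr7:141447636-141447665, plus strand: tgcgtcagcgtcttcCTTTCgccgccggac
Rps6, chr4:86857353-86857382, minus strand: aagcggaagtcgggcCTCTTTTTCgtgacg
Rps18, chr17:33955651-33955680, minus strand: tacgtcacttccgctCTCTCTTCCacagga

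Total counts lay between 7147601 and 16973392 per mouse. The mean correlation of CTL replicate 2 with the other libraries across genes was 0.875, against 0.923 to 0.944 for the others, so results are also given without it. T cell and Tfh markers were present, with all 11 listed genes above 3 counts in at least 1 mouse and a summed level of 4051 to 5149 CPM in CTL and 4101 to 4322 CPM in Prdm1-CKO mice (CPM, counts scaled to library size with TMM factors). B cell markers summed to 340 to 983 CPM in CTL and 900.03 to 1534 CPM in Prdm1-CKO mice over 10 of 10 genes, plasma cell markers to 260 to 414 and 399 to 676 CPM over 5 of 5, and macrophage markers to 459 to 1423 and 1006 to 1425 CPM over 9 of 9. Erythroid markers summed to 7.09 to 17.6 and 12.1 to 47.3 CPM over 7 genes, granulocyte markers to 57.1 to 160 and 103 to 168 CPM over 6, and CD8 and NK cell markers to 212 to 275 and 176 to 206 CPM over 6, so that the CD8 and NK cell sums did not overlap. At an unadjusted p under 0.05 in edgeR, 3 of 4 tested erythroid and 2 of 9 macrophage markers were higher in Prdm1-CKO mice. So were 1 of 5 plasma cell and 1 of 5 granulocyte markers, where 0.928% of all genes tested were higher. Lower were 2 of 6 CD8 and NK cell markers and 1 of 11 T cell and Tfh markers, namely Cd4, against 1.42% of all genes. Of 10 B cell markers 0 were called, and 0 markers of any list had an adjusted p under 0.05 in edgeR. No listed marker found in the files was at 0 in all mice, and the part of these cells in the results for ribosomal protein genes was not tested. In a bulk sample, fewer cells of a type and less RNA per cell cannot be told apart.

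The 91 members took 1.47% to 2.05% of the counts in a library. The share was 1.66%, 1.47% and 1.98% for CTL replicates 1 to 3, against 1.77%, 2.05% and 1.67% for the Prdm1-CKO replicates. CTL replicate 3 and Prdm1-CKO replicate 2 were the highest, CTL replicate 2 was the lowest, and the groups overlapped. The mean was 1.71% ± 0.26 (SD, n = 3) in CTL and 1.83% ± 0.19 (SD, n = 3) in Prdm1-CKO mice, a difference of 0.125 percentage points, smaller than either SD. Without CTL replicate 2 the difference was 0.00553, and without CTL replicate 3 it was 0.265 percentage points. The 95% Wilson intervals were at most ±0.0102 percentage points wide and cover counting error only, so the spread between mice was far larger than counting error.

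**Figure D1:**
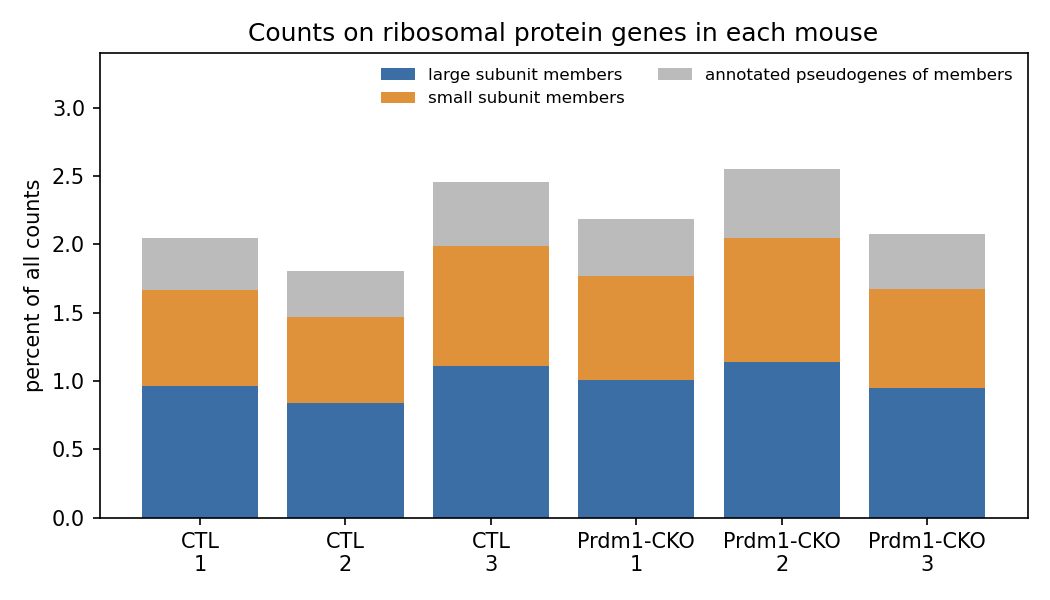
Stacked bars give the percent of all counts of each mouse on large subunit members, small subunit members and annotated pseudogenes that share sequence with a member. Members take from 1.47% in CTL replicate 2 to 2.05% in Prdm1-CKO replicate 2, and the groups overlap.

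The most-counted gene, the ribosomal RNA gene CT010467.1, took 5.70%, 9.84% and 14.7% of the counts in CTL and 5.14%, 10.2% and 9.66% in Prdm1-CKO mice, and mitochondrial genes took 2.11% to 5.83%. With these counts removed from the total, the member share was 1.82%, 1.74% and 2.45% in CTL and 1.91%, 2.38% and 1.94% in Prdm1-CKO mice. The same pair of mice stayed highest. The part of ribosomal RNA carry-over in the share was not tested.

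Large subunit genes held more of the member counts than small subunit genes in every mouse. They took 57.9%, 57.0% and 55.9% for CTL replicates 1 to 3, against 56.9%, 55.6% and 56.5% for the Prdm1-CKO replicates. The means were 56.9% ± 0.99 (SD, n = 3) and 56.3% ± 0.64 (SD, n = 3), which differed by less than the larger SD. CTL replicate 3 and Prdm1-CKO replicate 2, the mice with the highest member share, had the lowest large subunit part. Per kb of merged exons, the median level was 33.9 CPM over the 57 large and 72.7 CPM over the 34 small subunit members. The large subunit list holds Rpl39l, Rpl3l, Rpl9-ps1, Rpl10l and Rpl36-ps4, at 0 to 0.994 CPM per kb. The lowest small subunit member was at 5.41 CPM per kb. The part of list make-up and of exon length in this difference was not tested.

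Levels differed widely between members, although the proteins are present in about equal numbers in a ribosome. Levels are given as CPM per kb of merged exon length and averaged over the 6 mice. Among large subunit genes the highest were Rpl4, Rplp0, Rplp1, Rpl8 and Rpl32. Rpl4 (chr9:64173375-64178666), a core large subunit protein, was at 1146 ± 123 CPM per kb (SD, n = 3) in CTL and 1111 ± 31.7 (SD, n = 3) in Prdm1-CKO mice. Rplp0 (chr5:115559467-115563727), the base of the stalk that recruits elongation factors, was at 965 ± 83.9 and 1003 ± 50.3 CPM per kb (SD, n = 3 each). Rplp1, an acidic protein of the same stalk, was at 957 ± 355 and 938 ± 220 CPM per kb (SD, n = 3 each). Rpl4 was above Rplp0 in 6 of 6 mice, while Rplp0 and Rplp1 did not differ beyond their spread. Rpl8, next in order at 561 ± 127 and 616 ± 37.2 CPM per kb (SD, n = 3 each), lay below Rplp0 by more than either SD in both groups. Rplp2, the partner of Rplp1, was lower, at 70.3 CPM per kb over all mice. The gap depends on the length used, since merged exons hold 499 bases in Rplp1 and 2072 in Rplp2. Per kb of coding sequence it was narrower, at 1371 CPM for Rplp1 and 418 CPM for Rplp2.

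Among small subunit genes, Rps15, Rps3a1 and Rps27rt were among the highest, at 328, 313 and 278 CPM per kb. Rpsa, which is also known as the laminin receptor, was at 89.8 CPM per kb. Rpl4 alone held 12.9% of all member counts and Rplp0 9.39%, and the 5 most-counted members held 37.6%. The order depends on which length is used, because merged exons hold long isoforms and exceed 2 kb in 36 members. Per kb of coding sequence, 6 of the top 10 were shared with the order by merged exons, and Rpl41, which encodes the smallest ribosomal protein, moved from place 13 to place 1.

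At the other end, Rpl24 had 193 counts over the 6 mice, 2.19 ± 0.589 CPM per kb in CTL and 2.84 ± 0.814 in Prdm1-CKO mice (SD, n = 3 each). Rpl10l and Rpl36-ps4 had 0 counts in every mouse, and Rpl9-ps1 had 3 counts in all. At this depth a library's floor of 3 counts is 0.177 to 0.420 CPM, so these transcripts were not detectable rather than shown to be absent.

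Paralogs with known tissue-restricted use were low. Rpl3l, the striated muscle form of Rpl3, showed 7, 10 and 3 counts among CTL mice, 28, 15 and 12 among Prdm1-CKO mice, against 1465 to 3981 counts for Rpl3. Rpl39l, a form known from male germ cells, showed 42, 0 and 6 counts among CTL mice, 2, 4 and 10 among Prdm1-CKO mice, while Rpl39 had 262 to 653. One CTL mouse thus held most Rpl39l counts. Other paralogs were closer to their partners. Rpl22l1 was at 33.4 CPM per kb against 47.5 for Rpl22, Rpl36al at 35.1 against 20.8 for Rpl36a, and Rpl7l1 at 33.2 against 176 for Rpl7. Over all mice Rpl36a had 2394 counts and its pseudogenes 3951, while Rpl36al had 3385 and its pseudogene 370. The order of Rpl36al and Rpl36a therefore depends on whether pseudogene counts are included. Rps27l was at 75.8 and Rps27rt at 278 CPM per kb against 162 for Rps27. All 25-base stretches of the Rps27 and Rps27rt coding sequences occur in another member, so the counts of this pair cannot be told apart by sequence within the coding part.

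Sequence sharing of this kind was the rule. The libraries had 2 reads of 25 bases per pair. Each 25-base window of a member's coding sequence was looked up in the annotated transcripts of all other genes, since no genome sequence was used here. Windows were looked up singly and in coding sequence only, so what the other read of a pair could place was not tested. The median member had 2.38% of its windows in no other gene, 37 members had none, and 67 had under 10%. In the median member 96.6% of the windows lay in an annotated pseudogene, and 16.9% crossed an exon junction. Rpl8 (88.3% unique), Rps3 (73.4%) and Rpl4 (51.9%) were among the most unique of the well-counted members, and Rpl4 and Rpl8 were also among the highest in level. Across the 89 members with a count, the rank correlation of level and uniqueness was 0.35, given as a description, since members share libraries and some share reads. How reads with several matches were counted is not given in the sources used here, and the part of this in the levels was not tested.

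**Figure D2:**
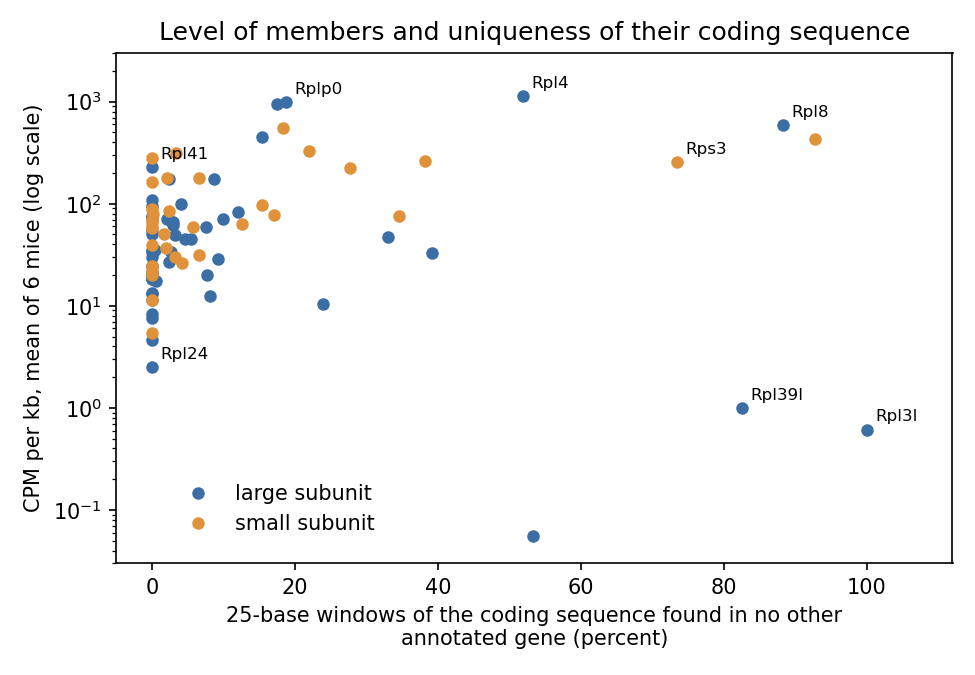
Each point is 1 of the 89 members with a count, with the percent of 25-base windows of its coding sequence found in no other annotated gene on the x axis and its mean level over 6 mice, in CPM per kb on a log scale, on the y axis. Most members sit near 0% unique, Rpl8, Rps3 and Rpl4 are both unique and high, and Rpl3l and Rpl39l are unique and low.

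By shared 15-base words, 608 annotated pseudogenes in the files matched a member, and 551 of them had a count. They belonged to 84 members, with 58 for Rpl21, 40 for Rpl7a and 35 each for Rpl29 and Rps2. Their counts came to 0.381%, 0.338% and 0.474% of the library in CTL and 0.416%, 0.504% and 0.402% in Prdm1-CKO mice. This is 22.9 to 24.6 pseudogene counts per 100 member counts, a narrow range in which mice high in members were also high in pseudogenes. In 20 members the pseudogenes together held more counts than the gene itself.

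Rps16, a small subunit protein near the decoding site, had 991, 538 and 675 counts in CTL and 1443, 1072 and 1276 in Prdm1-CKO mice, and Rps16-ps2 on chromosome 5 had 1877, 951 and 1157 and 2481, 1823 and 1998. Rpl14, a large subunit protein, had 9831 counts over all mice and Rpl14-ps1 12118. Among the 20 members below their pseudogenes, the ratio was highest for Rpl24, with 193 counts on the gene and 4029 on its pseudogenes. Rpl4 had 162170 counts and its pseudogene Gm5835 4924. Bases 101 to 160 of the coding sequence of these genes and the best placed stretch of the pseudogene are shown to make the sharing visible, with mismatches in capitals in the pseudogene.
Rps16: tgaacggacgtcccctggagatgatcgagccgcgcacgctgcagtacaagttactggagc
Rps16-ps2: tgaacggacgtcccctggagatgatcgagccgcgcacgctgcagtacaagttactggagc
Rpl14: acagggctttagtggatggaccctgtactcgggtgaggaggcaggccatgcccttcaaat
Rpl14-ps1: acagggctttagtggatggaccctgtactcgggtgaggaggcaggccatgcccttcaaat
Rpl4: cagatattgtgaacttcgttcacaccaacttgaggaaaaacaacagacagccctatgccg
Gm5835: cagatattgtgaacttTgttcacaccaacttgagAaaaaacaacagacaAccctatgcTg
The first 2 pairs have 0 mismatches over these 60 bases and the third has 4. A 25-base read from the stretch could thus not be placed by itself in the first 2 pairs. Whether the other read of its pair could place it was not tested.

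The comparison of Prdm1-CKO with CTL Tfh found no member that passed the test. Of the 91 members, 87 passed the filter on low counts, 53 large and 34 small. None had an adjusted p under 0.05 in edgeR's quasi-likelihood test, where the share called over all 14555 genes was 0%. At an unadjusted p under 0.05, 0 members were higher, against 0.928% of all genes, and 0 were lower, against 1.42%. DESeq2 also called 0 members, at an unadjusted p under 0.05, where it called 2.62% of genes, and at an adjusted p under 0.05, where it called 0.053%. The smallest unadjusted p of a member was 0.0769 in edgeR.

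Fitted log2 fold changes of the 87 members ran from -0.19 to 0.89 with a median of 0.064, and 3 were over 0.5 in size. These 3 had low counts. Rpl3l, at 0.89 (standard error 0.73), had 3 to 28 counts a mouse. Rpl36a-ps1, at 0.58, had 18 to 99, and Rpl31, at 0.53, had 82 to 269. The median over all genes tested was 0.01. Large and small subunit members had like medians, 0.067 and 0.063. Values above 0 were seen in 63 members, or 72.4%, against 51.1% of all genes. That lean depended on single mice. The median was -0.04 without CTL replicate 2, with 33 of 88 members above 0, and -0.04 without Prdm1-CKO replicate 2. It was 0.00021 without CTL replicate 1 and 0.28 without CTL replicate 3, with 84 of 87 above 0. At an unadjusted p under 0.05, 6 members were then higher, against 2.14% of all genes, namely Rps16, Rps26, Rpl23, Rpl38, Rpl8 and Rps2, and without CTL replicate 2 Rpl39l was lower, against 0.879% of all genes, on counts that came mostly from CTL replicate 1. The median standard error of a member was 0.22 on the log2 scale, so changes of that size were within the error of a single gene.

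**Figure D3:**
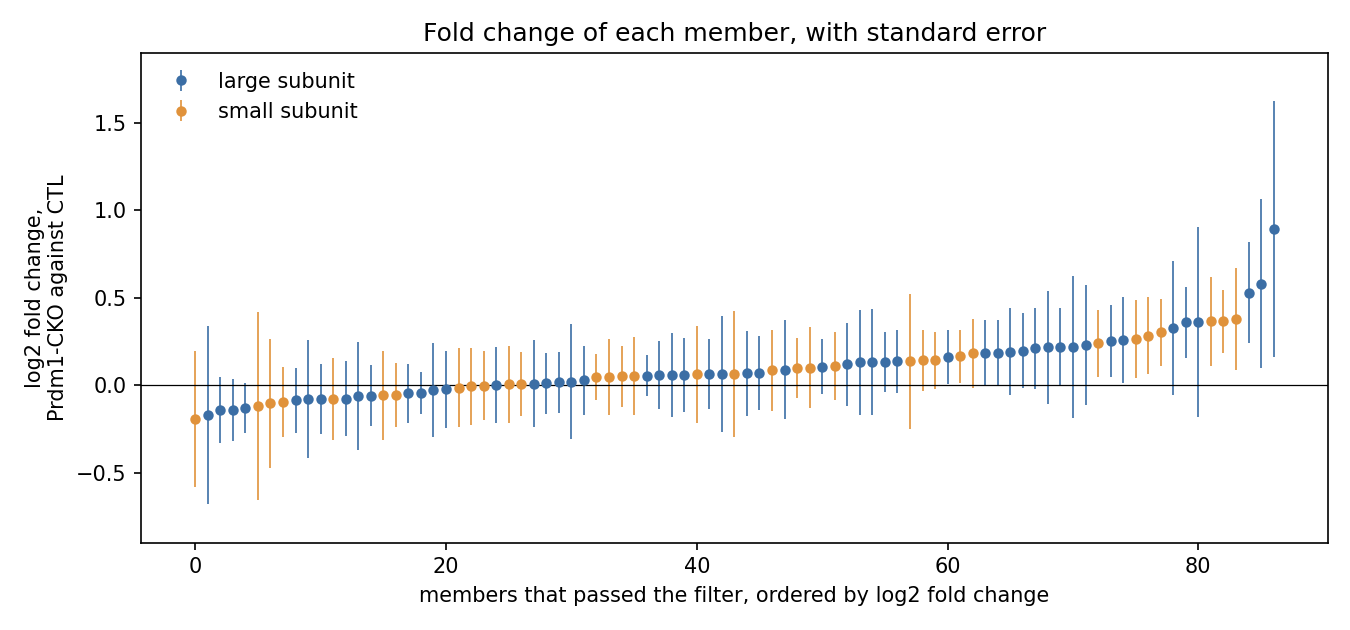
Points are the fitted log2 fold changes of the 87 members that passed the filter, Prdm1-CKO against CTL, ordered by size and coloured by subunit, with bars for the standard error. Values run from -0.19 to 0.89 around a median of 0.06, both subunits are mixed along the order, and no member had an adjusted p under 0.05. The highest value is that of Rpl3l, which had 3 to 28 counts a mouse.

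In 5 members the lowest Prdm1-CKO mouse exceeded the highest CTL mouse, which is 5.75% of the 87 against 4.56% of all genes tested, and in 0 members the highest Prdm1-CKO mouse was below the lowest CTL mouse, against 3.88%. Rps27l (chr9:66946086-66949516), a p53-responsive paralog of Rps27, was at 52.0, 54.3 and 55.7 CPM in CTL and 68.0, 81.5 and 59.4 CPM in Prdm1-CKO mice. It had the smallest p of all members, with a log2 fold change of 0.37 (standard error 0.18, edgeR adjusted p = 0.996). Its lowest Prdm1-CKO mouse lay close above the highest CTL mouse. Rpl31 (chr1:39367842-39371911), a large subunit protein near the exit tunnel, was at 11.6, 9.69 and 12.8 CPM in CTL and 15.1, 20.4 and 13.7 CPM in Prdm1-CKO mice. The fitted log2 change was 0.53 (standard error 0.29, edgeR adjusted p = 0.996), and 0.25 when counts of its 12 pseudogenes were added to it. Rps13 (chr7:116331505-116334195), a small subunit protein, was at 48.5, 39.1 and 56.4 CPM in CTL and 58.5, 59.6 and 59.3 CPM in Prdm1-CKO mice, with a fitted log2 change of 0.30 (standard error 0.19). The Prdm1-CKO mice were tightly grouped and one CTL mouse was within a few CPM of them. Rpl15 was at 79.1 ± 7.12 CPM in CTL and 88.4 ± 3.97 CPM in Prdm1-CKO mice (SD, n = 3 each), with a fitted log2 change of 0.16. Rpl36a-ps1 was at 3.55, 2.13 and 5.46 CPM in CTL and 5.57, 5.58 and 5.47 CPM in Prdm1-CKO mice, with a fitted log2 change of 0.58 (standard error 0.48), and its highest CTL mouse all but met the Prdm1-CKO mice. Without CTL replicate 2 the log2 changes of Rps13, Rpl15 and Rpl36a-ps1 were 0.16, 0.080 and 0.30, and without CTL replicate 3 that of Rpl36a-ps1 was 0.96.

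The other 2 members among the 5 higher ones with the smallest p overlapped between groups. Rpl23 (chr11:97777527-97782437), which is known to bind Mdm2, was at 66.4, 56.8 and 88.3 CPM in CTL and 80.3, 100.9 and 89.9 CPM in Prdm1-CKO mice. The fitted log2 change was 0.36 (standard error 0.21, edgeR adjusted p = 0.996), and 0.20 with its pseudogenes added. Without CTL replicate 2 it was 0.21 and without CTL replicate 3 0.56. Rps2, at the mRNA entry channel, was at 180, 294 and 387 CPM in CTL and 353, 397 and 359 CPM in Prdm1-CKO mice, with a fitted log2 change of 0.36 (standard error 0.25). CTL replicate 1 was the low mouse here, and without it the value was 0.10, while without CTL replicate 3 it was 0.65.

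The 5 lower members with the smallest p were Rpl7l1, Rpl13a, Rpl7a, Rps12 and Rps4x, with log2 fold changes of -0.13, -0.14, -0.14, -0.19 and -0.10. Rpl7l1 was at 121 ± 7.19 CPM in CTL and 111 ± 7.35 CPM in Prdm1-CKO mice (SD, n = 3 each). Rps12 was at 11.9, 30.8 and 30.7 CPM in CTL and 15.8, 25.1 and 23.0 CPM in Prdm1-CKO mice, with 1 low mouse in each group. Without CTL replicate 3 the values of Rpl7a, Rps12 and Rps4x were 0.05, 0.01 and 0.10. With a mouse left out, Rpl13a ran from -0.23 to -0.061, and Rpl7l1 was -0.074 without Prdm1-CKO replicate 2. None of the 5 had an unadjusted p under 0.05.

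**Figure D4:**
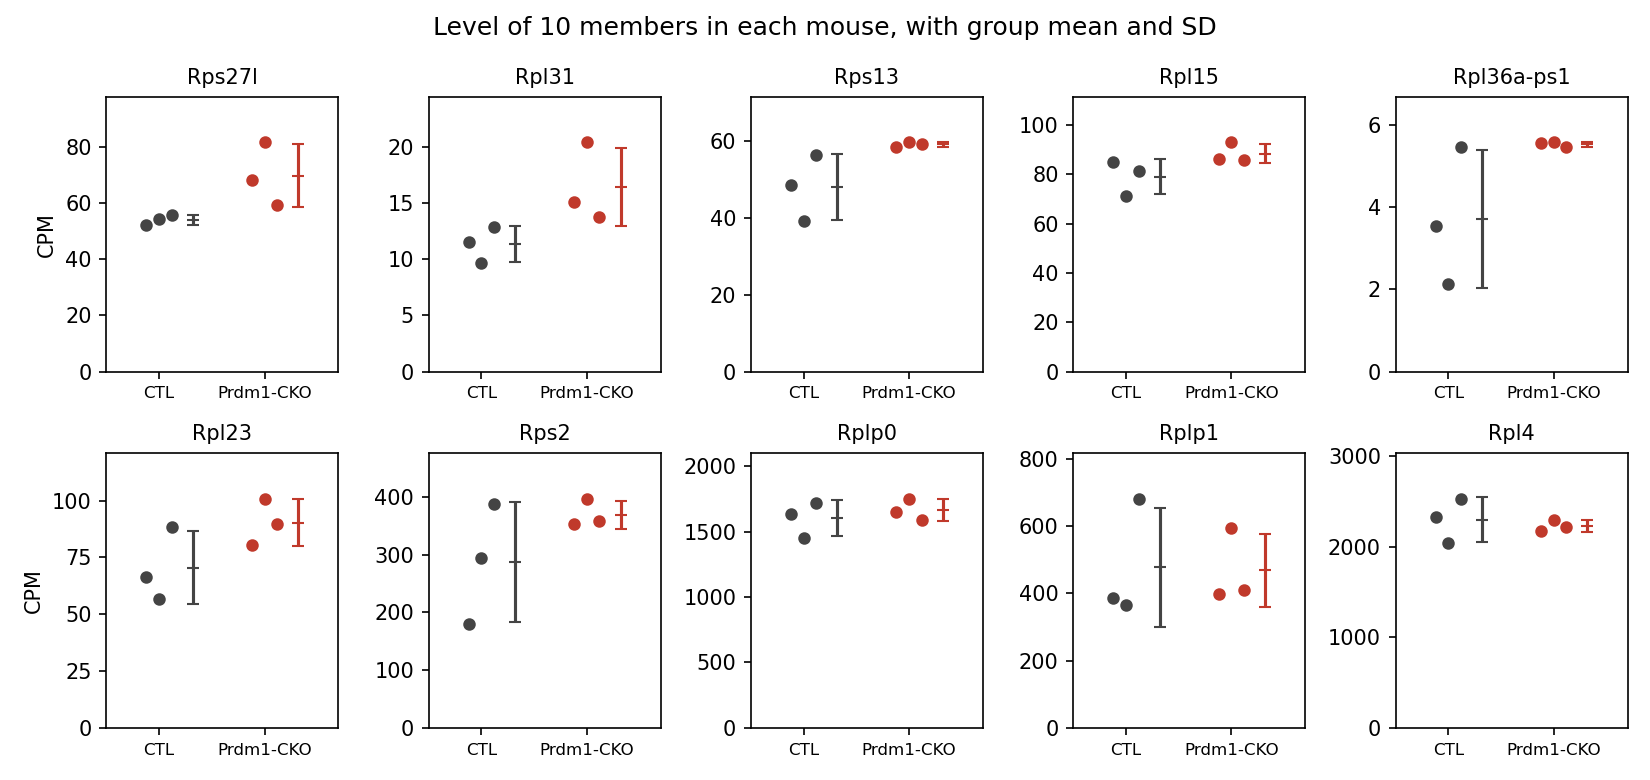
Dots give the level of 10 members in each mouse in CPM, CTL in grey and Prdm1-CKO in red, with the group mean and SD (n = 3) to the right of the dots and each axis starting at 0. The first 5 panels are the members whose groups do not overlap, and Rplp0, Rplp1 and Rpl4 are the 3 highest in level, with groups that overlap.

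The highest members overlapped between groups. Rpl4 was at 2325, 2040 and 2533 CPM in CTL and 2172, 2297 and 2217 CPM in Prdm1-CKO mice, with a fitted log2 change of -0.045 (standard error 0.12). Rplp0 had a log2 fold change of 0.05 (standard error 0.12). Rplp1 was at 385, 365 and 682 CPM in CTL and 399, 595 and 411 CPM in Prdm1-CKO mice, with 1 high mouse in each group, and the fitted log2 change was -0.03 (standard error 0.27). Rpl5 and Rpl11, which with 5S rRNA form the particle that inhibits Mdm2 when ribosome assembly fails, were at 52.4 ± 4.72 and 50.4 ± 6.20 CPM in CTL and 53.0 ± 3.71 and 52.9 ± 10.5 CPM in Prdm1-CKO mice (SD, n = 3 each). Their log2 fold changes were 0.02 and 0.07. Rps6, whose protein is phosphorylated downstream of mTORC1, was at 93.3 ± 16.9 and 99.8 ± 3.15 CPM, and Rps19, a gene mutated in Diamond-Blackfan anaemia, at 284 ± 61.3 and 306 ± 40.9 CPM (SD, n = 3 each). Rps26, another gene of that anaemia, was at 127, 110 and 173 CPM in CTL and 150, 204 and 145 CPM in Prdm1-CKO mice, with a fitted log2 change of 0.28 (standard error 0.22). This was 0.13 without CTL replicate 2, 0.12 without Prdm1-CKO replicate 2 and 0.50 without CTL replicate 3.

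The same 2 mice stood out again when members were divided by length. Over the 86 members with at least 10 counts in every mouse, the 28 with the shortest coding sequence, at most 393 bases, had a median deviation from the 6-mouse mean of 0.38 in CTL replicate 3 and 0.43 in Prdm1-CKO replicate 2 on the log2 CPM scale. In CTL replicates 1 and 2 it was -0.22 and -0.35, and in Prdm1-CKO replicates 1 and 3 it was -0.09 and -0.12. The 28 longest, of at least 579 bases, deviated by 0.26 and 0.13 in the 2 high mice and by -0.16 to -0.03 in the other mice. Short members varied more between mice than long ones, within both groups. Over all 14540 genes with a length, the rank correlation of deviation and exon length was -0.24 in CTL replicate 3 and -0.14 in Prdm1-CKO replicate 2, 0.18 and 0.20 in CTL replicates 1 and 2, and -0.017 and -0.089 in Prdm1-CKO replicates 1 and 3. Over all genes the value was thus below 0 in all 3 Prdm1-CKO mice and in 1 CTL mouse. The 86 members, with coding length, did not share this pattern. Their values were 0.18, 0.43 and -0.27 for CTL replicates 1 to 3, and 0.075, -0.69 and 0.35 for the Prdm1-CKO replicates. Correcting for gene length in the fit moved the median log2 fold change of the members from 0.064 to 0.035. The part of length in the differences between mice was not tested further.

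**Figure D5:**
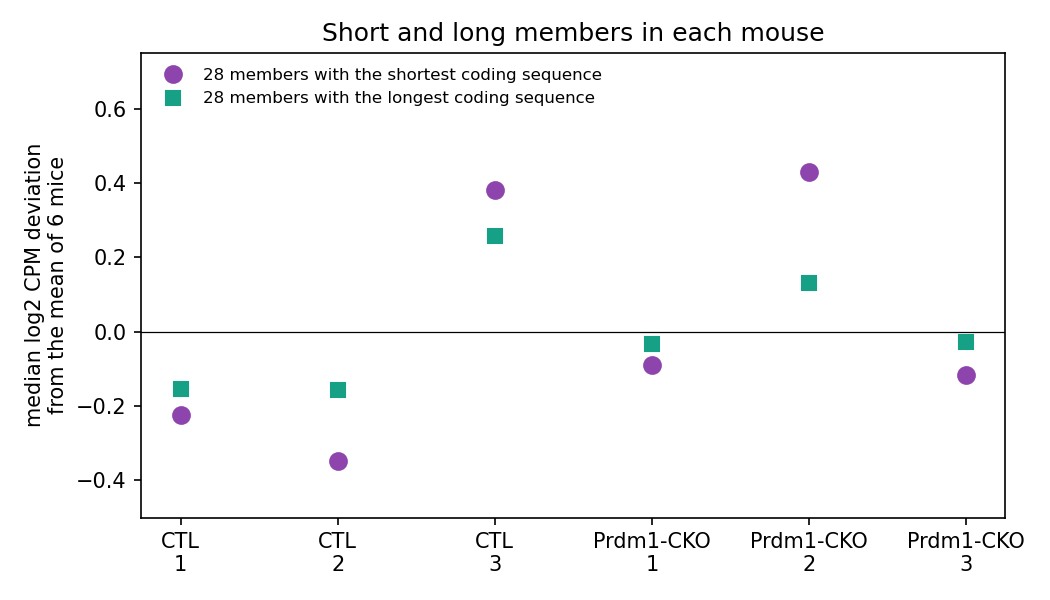
For each mouse, points give the median deviation of log2 CPM from the 6-mouse mean for the 28 members with the shortest and the 28 with the longest coding sequence. Short members range from -0.35 in CTL replicate 2 to 0.43 in Prdm1-CKO replicate 2 and long members from -0.16 to 0.26, with 1 high CTL mouse and 1 high Prdm1-CKO mouse.

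Among the lists of genes that act with the ribosomal proteins, none held a gene with an adjusted p under 0.05. Beside the counts below, groups did not overlap in 4.56% of all genes tested with Prdm1-CKO higher and in 3.88% with Prdm1-CKO lower. Of the ribosomal protein genes outside the naming rule, 0 of 3 passed the test, and Fau and Rack1 had log2 fold changes of 0.12 and 0.0079. Of 37 translation factors tested, 0 had an unadjusted p under 0.05, with a median log2 fold change of 0.07 and 28 above 0, 2 had groups that did not overlap with Prdm1-CKO higher and 0 with Prdm1-CKO lower, and the smallest p belonged to Eif2s1, the alpha subunit of initiation factor eIF2, at 0.24 (standard error 0.16). Of 51 ribosome biogenesis factors, 0 passed at that level, with a median of 0.03, 3 had groups without overlap with Prdm1-CKO higher and 0 lower, and Utp20, a small subunit processing factor, had the smallest p at -0.69 (standard error 0.35). Nop10, a part of box H/ACA particles, was at 82.8 ± 30.5 CPM in CTL and 118 ± 4.65 CPM in Prdm1-CKO mice (SD, n = 3 each). Of 14 RNA polymerase I genes, 0 passed, with a median of 0.05, 2 had groups without overlap with Prdm1-CKO lower and 0 higher, and Polr1c, a subunit shared with RNA polymerase III, had the smallest p at -0.39 (standard error 0.19). Of 77 mitochondrial ribosomal protein genes tested, 0 passed, with a median of 0.14, and in 7 the groups did not overlap with Prdm1-CKO higher, or 9.09% against 4.56% of all genes, and in 0 with Prdm1-CKO lower.

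Among 14 tested genes of mTORC1, Myc and Larp1 control, 1 had an unadjusted p under 0.05 and was lower in Prdm1-CKO Tfh, where 1.42% of all genes were, and 3 of the 14 had every Prdm1-CKO mouse below the CTL mice, against 3.88% of all genes. Mtor, the kinase of the complex, was at 42.1, 41.9 and 43.5 CPM in CTL and 31.6, 30.2 and 28.8 CPM in Prdm1-CKO mice, and the groups did not overlap. The fitted log2 change was -0.49 (standard error 0.18), with an unadjusted p of 0.0257 and an adjusted p of 0.996 in edgeR's quasi-likelihood test, so it did not pass the test over all genes. Tsc1, an inhibitor of mTORC1, was at 42.4, 62.9 and 41.0 CPM in CTL and 37.1, 30.1 and 36.6 CPM in Prdm1-CKO mice, and its groups did not overlap either. The median of the list was -0.04, with 6 of 14 genes above 0.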

How the data were processed

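Splenic Tfh of 3 CTL and 3 Prdm1-CKO mice were sequenced as Smart-seq2 libraries with 2 reads of 25 bases. The deposited values are raw counts per gene, made by the authors with featureCounts on GRCm38 (mm10) with a GENCODE annotation, and the submitters' processing notes name STAR 2.4.2a and GRCm38.p6. Strand setting and the handling of reads with several matches are not given in the sources used here. GENCODE M21 supplied symbols, lengths and coordinates and named 53274 of 53379 identifiers, and coordinates are given only where the identifier version was the same (78 of 91 members).

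Counts were tested with edgeR's quasi-likelihood test (edgeR 4.0.16, R 4.3.3) with TMM factors and filterByExpr, two-sided, with Benjamini-Hochberg adjustment over 14555 genes. DESeq2 1.42.0 was an alternative. No test was run on shares, medians or the subunit ratio, and an exact test of 3 against 3 mice cannot go below p = 0.1. Replicates are separate mice. Same-numbered mice had residual correlations of 0.16, 0.03 and 0.02, so numbers were not taken as pairs. On simulated counts with 200 of 14555 genes changed 4-fold for this comparison, edgeR recovered 51.5% with 10 false calls and DESeq2 69.0% with 41.

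Uniqueness had been planned on merged exons and the genome. It was computed on coding sequences against annotated transcripts, on both strands. A pseudogene was taken when at least 50% of its 15-base words occurred in the members together. It was then given to the member that shared the most of its words. Fold changes are fitted log2 values, and log2 deviations by length used members with at least 10 counts in every mouse. Named members were the stalk genes and Rpsa, the 5 highest of each subunit per kb, the 5 with the smallest p in each direction, listed paralogs, Rpl5, Rpl11, Rps6, Rps19 and Rps26, members at or under 3 counts, and those without overlap. Rpl14, Rpl21, Rpl24, Rpl29, Rpl38, Rpl41, Rps3, Rps16, Rps18 and Rps21 were named for their sequence, length or counts after values were seen. The other lists were translation factors, ribosome biogenesis factors, RNA polymerase I genes, mTORC1, Myc and Larp1 control genes, mitochondrial ribosomal proteins, ribosomal protein genes outside the naming rule, and markers of other cells. Members and lists were chosen with earlier results of these data known. Of the genes the rule names, 3 are not reported here by themselves, and they stay in every fit, count and share.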

Additional observations from a re-analysis of the deposited data

How the results depend on the processing

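No member had an adjusted p under 0.05 in edgeR or DESeq2, with another scaling, filter or length correction, with the replicate block, with pseudogene counts added or with any mouse left out. Leaving out each mouse in turn gave 0 to 6 members higher and 0 to 1 lower at an unadjusted p under 0.05. The 6 were Rps16, Rps26, Rpl23, Rpl38, Rpl8 and Rps2, without CTL replicate 3 (2.14% of all genes), and the 1 was Rpl39l, without CTL replicate 2 (0.879%). The median log2 fold change ran from -0.04 to 0.28 with a mouse left out, from -0.05 to 0.31 in the large and from -0.05 to 0.26 in the small subunit. The share difference ran from 0.00553 to 0.265 percentage points and that of the large subunit part from -1.10 to -0.11. With pseudogenes added, chosen after seeing the data, the share difference was 0.168 percentage points and the median 0.09.

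The replicate block gave a median of 0.08 and turned Rplp1 to 0.0081. The block changed no call, and the shared numbers are not taken as pairs. Length correction turned Rpl5 to -0.012, as did length correction with the block (-0.011), and adding pseudogenes turned Rpl13a to 0.069. With a mouse left out, Rplp0 ran from -0.024 to 0.12, Rplp1 from -0.23 to 0.32, Rpl4 from -0.14 to 0.037, Rpl7a from -0.26 to 0.0496, Rps12 from -0.55 to 0.012, Rps4x from -0.28 to 0.10, Rpl5 from -0.0707 to 0.078 and Rpl11 from -0.079 to 0.20. Of the 39 tested members named by rule, 15 kept their direction in every setting. Under settings other than leaving out a mouse, 10 values in 6 members turned, among them Rps15 (-0.037), Rps27rt (-0.034) and Rpl36a (-0.019) with length correction. With 3 mice a group and a median standard error of 0.22, changes of that size were within the error of a single gene. Larger changes were not called either, since Rpl31, at 0.53, had an edgeR adjusted p of 0.996. In simulated counts edgeR recovered 51.5% of 200 genes changed 4-fold, drawn from all genes tested. The median standard error was 0.33 over all genes tested, so this is not a recovery rate for members, whose median was 0.22. With errors of that size in 3 mice a group, the lack of calls does not show that members were unchanged.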
